A study of Mus musculus with 8 samples.

Results

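The Hox genes of the mouse were described here in fibroblasts sorted from the dermis of female mice. Members were all genes whose symbol reads Hox, then a, b, c or d, then a number, in the table that pairs the array's probe sets with genes. The RefSeq gene table lists 39 such genes, and 34 of them were measured by 42 probe sets, among 17097 genes in all. By cluster these were 9 of 11 Hoxa genes, 10 of 10 Hoxb genes, 6 of 9 Hoxc genes and 9 of 9 Hoxd genes. The other genes of the clusters were not analysed here.

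Hox genes encode homeodomain transcription factors and lie in clusters on separate chromosomes. Along each cluster the order of the genes follows the order of their expression from head to tail in the embryo, and along the limb from shoulder to digits. Genes at the same place in different clusters are called paralogues and share a number. Adult skin fibroblasts are known to keep a Hox pattern that reflects the body site they come from, and Polycomb and Trithorax chromatin proteins are known to hold such patterns.

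The mice ate a normal diet (ND, the control diet of the study) or a high fat diet (HFD) over 6 months, starting when they were 2 months old, and the study asked how the diet alters the fibroblast transcriptome. Strain, genotype and the body site of the skin are not given in the sources used here. Skin without its subdermis was digested with collagenase, and 10000 cells per mouse were sorted that carried Pdgfra and CD34 but not the lineage markers CD45, CD117, CD24, CD31 or EpCam. The RNA of each specimen, after 20 cycles of amplification, was hybridised to 1 array. There were 4 ND and 4 HFD arrays, and the submitters' quality control excludes ND 4, so HFD 1 to 4 were compared with ND 1 to 3. Each specimen was treated as its own mouse, since the design text states 4 per diet. P-values measure only the spread between these few specimens, whose number limits the precision of every value. For each gene that spread was estimated partly from the other genes.

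All levels are log2 expression values, so a difference of 1 is a doubling, and the median gene had a level of 6.77. Brightness differs between probe sets, so levels of different genes were not ranked against each other. Instead, the 95th percentile of 39 olfactory receptor genes, which a fibroblast should not use, served as the top of a background range on each array (5.85 to 6.09). Fibroblast markers were bright on the whole: the mean of 11 was 11.29 to 11.37 in ND and 11.28 to 11.38 in HFD, and Cd34 lay between 12.06 and 12.17. The probe set for Pdgfra was dim (5.79 to 6.49) and below the range on ND 3 (5.79 against 5.91). Of the markers sorted against, Pecam1 (CD31) was above the range on all 7 arrays, at 6.51 to 7.30. Cd24a (CD24) straddled it (5.49 to 6.35). Below it were Ptprc (CD45, 3.99 to 4.15), Kit (CD117, 4.17 to 4.31) and Epcam (5.11 to 5.35). Over the marker lists of fibroblasts, keratinocytes and 5 other groups of cell types, Lum, a fibroblast proteoglycan, was lower past the threshold (−0.34, adjusted p = 0.0358), and Tyrobp, an adaptor of blood cells at 5.58 to 6.04, was higher (0.32, adjusted p = 0.0352). Both went against their lists: 7 of 11 fibroblast markers had a positive difference (median 0.02) and 8 of 13 blood markers a negative one (median −0.01). Of all genes 5.35% passed the threshold. The mean of 21 keratinocyte markers was 6.82, 6.30 and 6.57 in ND 1 to 3, 7.17 in ND 4 and 6.59, 7.81, 7.17 and 7.09 in HFD 1 to 4. All 21 had a positive difference between diets, with a median of 0.37, and none passed the test. Of these markers 10 were above the background range on all 7 arrays, and 3 were above it on no array. RNA quality was read from control probe sets at both ends of the Gapdh and Actb transcripts, whose 3′ value minus 5′ value was −0.29, −0.335 and −0.18 in ND 1 to 3, −0.37 in ND 4, and −0.40, −0.44, −0.375 and −0.44 in HFD 1 to 4. In such bulk samples fewer cells of a type and less RNA per cell cannot be told apart.

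The promoters of the 2 Hox genes that passed the test for diet, the neighbours Hoxd8 and Hoxd9, and of Hoxa9, the paralogue of Hoxd9 with the most negative difference, are shown here. Each run of 300 bases covers 250 bases before and 50 after the gene's start, 5′ to 3′ on the gene's strand, from RefSeq on GRCm38.p6. CpG dinucleotides are in capitals.
Hoxd8 (chr2:74704365-74704664, plus strand): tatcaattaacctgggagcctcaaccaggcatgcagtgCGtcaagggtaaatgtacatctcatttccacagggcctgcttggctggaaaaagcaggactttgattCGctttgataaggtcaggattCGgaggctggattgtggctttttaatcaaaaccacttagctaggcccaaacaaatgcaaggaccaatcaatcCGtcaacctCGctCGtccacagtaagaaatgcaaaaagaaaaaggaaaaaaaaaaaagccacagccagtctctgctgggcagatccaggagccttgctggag
Hoxd9 (chr2:74697513-74697812, plus strand): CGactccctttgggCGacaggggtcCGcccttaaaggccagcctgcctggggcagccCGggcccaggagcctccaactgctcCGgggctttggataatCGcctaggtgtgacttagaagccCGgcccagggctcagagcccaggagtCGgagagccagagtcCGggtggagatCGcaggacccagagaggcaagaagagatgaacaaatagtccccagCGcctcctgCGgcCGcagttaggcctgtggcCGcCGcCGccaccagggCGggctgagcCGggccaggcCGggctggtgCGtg
Hoxa9 (chr6:52227321-52227620, minus strand): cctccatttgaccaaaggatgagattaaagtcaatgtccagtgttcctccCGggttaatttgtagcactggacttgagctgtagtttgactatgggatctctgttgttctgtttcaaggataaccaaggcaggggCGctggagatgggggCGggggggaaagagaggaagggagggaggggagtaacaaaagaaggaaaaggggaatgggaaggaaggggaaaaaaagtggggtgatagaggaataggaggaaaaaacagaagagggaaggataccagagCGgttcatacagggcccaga
The Hoxd9 window held 20 CpGs at 68.3% GC, the Hoxd8 window 6 CpGs at 46.7% and the Hoxa9 window 4 CpGs at 49.7%. From the end of the Hoxd9 window to the start of the Hoxd8 window there were 6552 bases. The RefSeq table held 23 windows of 21 members. Their median CpG count was 14, against 7 over all 32851 promoters of the table, and their median GC content 57.3% against 52.7%. The letters TGATNNAT, a form of the site bound by Hox proteins together with Pbx cofactors, were found on either strand in 4 of the 23 windows (17.4%; those of Hoxa2, Hoxb1, Hoxb8 and 1 of 2 for Hoxd11) and in 8.85% of all promoters. The letters TATAAA were found on either strand in 4 windows (17.4%; Hoxb8 again, Hoxd4, Hoxd13 and 1 of 2 for Hoxa10) and in 13.6% of all. Neither was in the 3 windows shown.

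Above the background range on all 7 arrays were 17 of the 34 members, against 60.8% of all genes. In the Hoxa cluster these were Hoxa3, Hoxa7, Hoxa9 and Hoxa10, and in the Hoxb cluster Hoxb2, Hoxb4, Hoxb5 and Hoxb8. The Hoxc cluster gave Hoxc4, Hoxc5, Hoxc8, Hoxc9 and Hoxc10, which is 5 of the 6 measured there. The Hoxd cluster gave Hoxd4, Hoxd8, Hoxd9 and Hoxd12. By paralogue number, 2 of 7 anterior genes (numbers 1 to 3), 9 of 13 central genes (4 to 8) and 6 of 14 posterior genes (9 to 13) were above the range. All 3 genes numbered 8 and the 1 numbered 12 were above it, as were 3 of 4 for each of the numbers 4 and 9, and 2 of 3 for each of 5 and 10. It was 1 of 2 for each of 2 and 7 and 1 of 3 for number 3. None of the genes numbered 1 (2 genes), 6 (1 gene), 11 (2 genes) or 13 (4 genes) was above it on all 7 arrays.

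**Figure D1:**
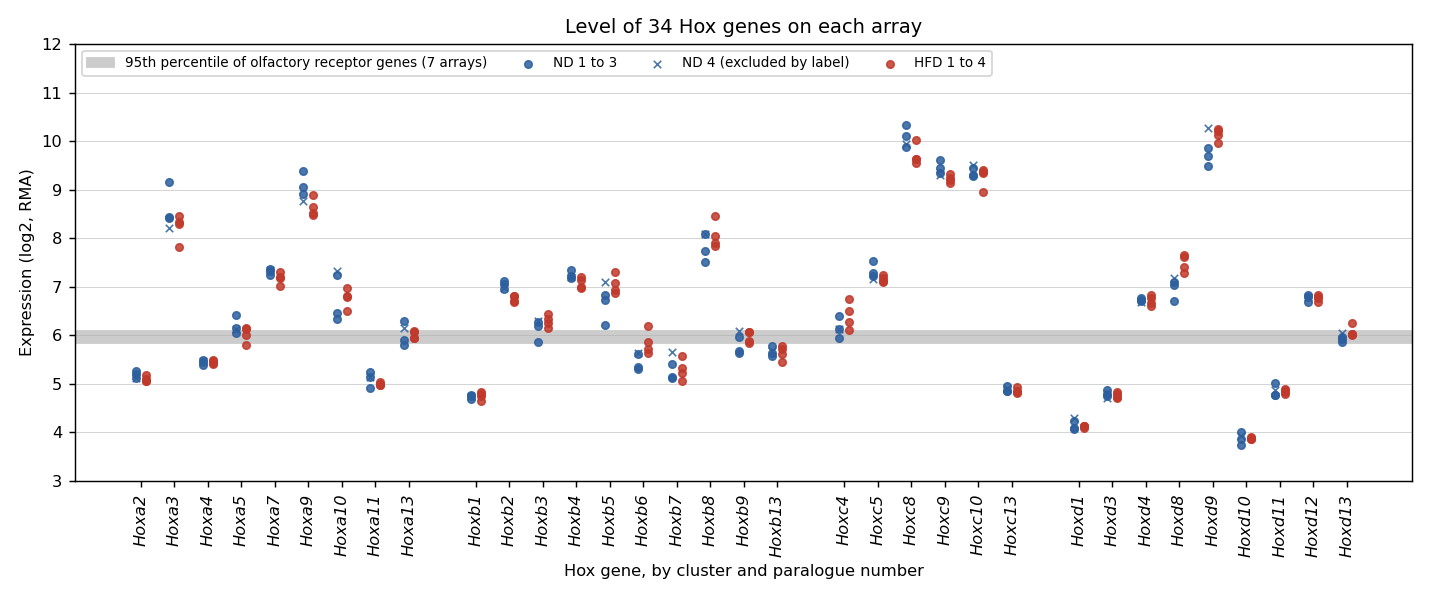
Log2 expression of 34 Hox genes (y axis), ordered by cluster and paralogue number (x axis). Each point is 1 array, blue for ND 1 to 3, red for HFD 1 to 4 and a cross for ND 4; the grey band spans the 95th percentile of olfactory receptor genes over the 7 arrays (5.85 to 6.09). Hoxc8, Hoxc9, Hoxc10, Hoxd9 and Hoxa9 stand well above the band on every array, and 11 genes, such as Hoxd10 and Hoxc13, were above the range on no array.

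A further 6 members straddled the range. Hoxd13, which patterns the digits and the external genitalia, was above it on 6 of 7 arrays (5.87 to 6.26), and its paralogue Hoxa13 on 5 (5.81 to 6.29). Hoxb3 was above it on 6 (5.87 to 6.44), Hoxa5 on 5 (5.81 to 6.42), Hoxb9 on 4 (5.63 to 6.07) and Hoxb6 on 2 (5.30 to 6.20). The other 11 members were above it on no array. They were Hoxa2 and Hoxa4, Hoxa11, Hoxb1, Hoxb7, Hoxb13 (a gene of the tail end of the body), Hoxc13 (which drives hair keratins), Hoxd1, Hoxd3, Hoxd10 and Hoxd11. Their values ran from 3.75 for Hoxd10 to 5.78 for Hoxb13. A dim probe set does not show that a gene is silent, nor does a value above the range show that a gene is used. Above it on all 7 arrays were also 5 of 13 blood markers, such as Cd79a (7.77 to 8.10). The same held for 3 of 8 Schwann and melanocyte markers, such as Sox10 (6.89 to 7.11). Hoxd4 (6.60 to 6.84) and Hoxd12 (6.69 to 6.83) read lower than these 2 markers. A further 4 noncoding RNAs of the clusters were measured: Hoxaas2 lay between 6.72 and 6.94, and Hoxa11os, Hoxb5os and Hoxd3os1 between 4.02 and 5.70. Their differences between diets were −0.10, −0.07, 0.04 and 0.08, with standard errors of 0.08, 0.04, 0.10 and 0.06, and none passed the test.

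Between diets, 2 of the 34 members passed the test, Hoxd8 and Hoxd9, both higher in HFD fibroblasts, by 1.46-fold and 1.38-fold. No member was lower past the threshold. The 2 are 5.88% of the members, where 5.35% of all 17097 genes passed in either direction, 2.62% higher and 2.73% lower, a share near that of all genes (limma, Benjamini-Hochberg adjusted p under 0.05). At an unadjusted p under 0.05 there were 9 members (26.5%), 5 higher and 4 lower, against 22.1% of all genes. The arrays of the diets showed no overlap in 8 members (23.5%), against 17.9% of all genes. Higher in every HFD array were Hoxb5, Hoxb6, Hoxd8, Hoxd9 and Hoxd13, a direction found in 9.95% of all genes. Of these, Hoxd13 differed by 0.16 (SE 0.08, adjusted p = 0.278), and its dimmer probe set by −0.02 (SE 0.07). Lower in every HFD array were Hoxa9, Hoxb2 and Hoxc9, a direction found in 7.99% of all genes. With ND 4 added, Hoxb2 and Hoxd8 still did not overlap, and the other 6 did.

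The differences ran both ways, 16 positive and 18 negative, with a median of 0.00 against 0.02 over all genes. By cluster, 6 of 9 Hoxa genes and 5 of 6 Hoxc genes had a negative difference, with medians of −0.10 and −0.13. Positive differences made up 7 of 10 in the Hoxb cluster (median 0.13) and 5 of 9 in the Hoxd cluster (median 0.00). Of the 17 members above the background range 2 passed the test (11.8%), against 8.06% of the 10402 genes above it. That group leaves out members that reached the range in 1 diet more than in the other, such as Hoxb6.

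**Figure D2:**
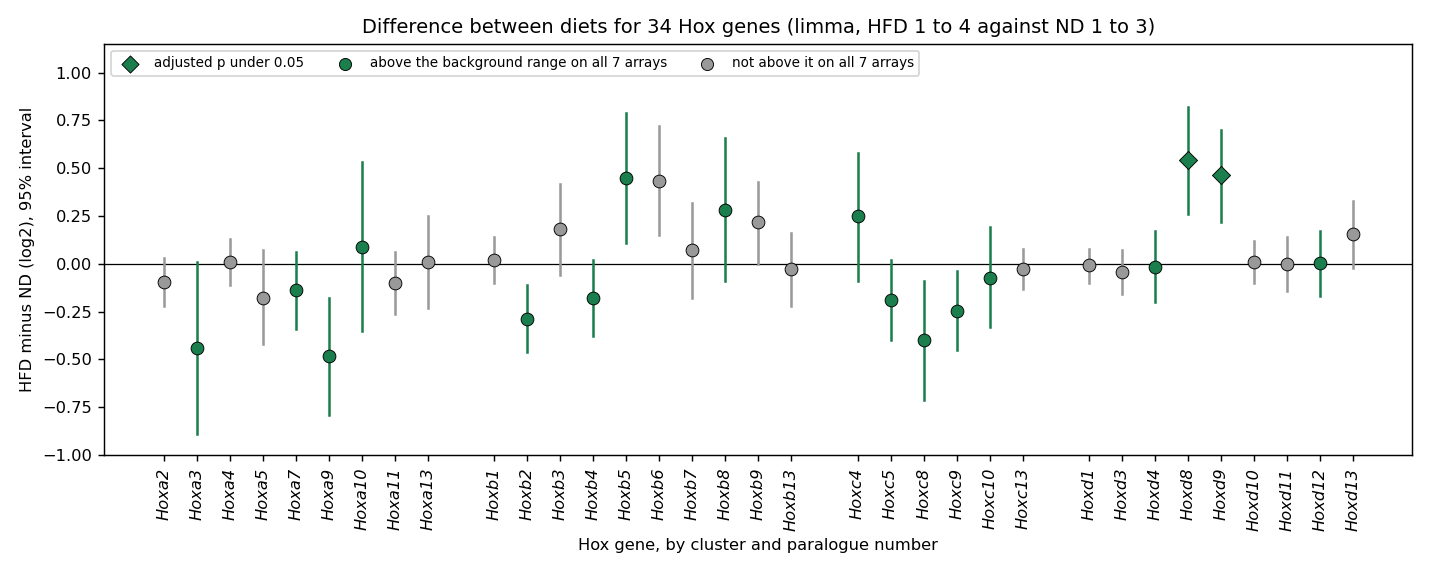
Difference between diets, HFD minus ND in log2 (y axis), with its 95% interval from limma, for 34 Hox genes (x axis). Green marks genes above the background range on all 7 arrays, grey the others and diamonds an adjusted p under 0.05. The diamonds are Hoxd8 at 0.54 and Hoxd9 at 0.46; Hoxa9 at −0.48 and Hoxa3 at −0.44 lie lowest.

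Hoxd8, a central gene of the Hoxd cluster, had levels of 7.03, 7.10 and 6.71 in ND 1 to 3 and of 7.28, 7.40, 7.62 and 7.66 in HFD 1 to 4. Every HFD array was above every ND array, and ND 3 was lowest. The mean rose from 6.95 ± 0.21 (SD, n = 3) to 7.49 ± 0.18 (SD, n = 4), a log2 difference of 0.54 (SE 0.13, 95% interval 0.26 to 0.82, adjusted p = 0.0397), or 1.46-fold. The probe set used carries the suffix that the array's maker gives to probe sets shared by several transcripts. A second, dimmer probe set (mean 6.06) differed by 0.08 (SE 0.08), so the probe sets of Hoxd8 disagreed in size.

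Hoxd9, the posterior neighbour of Hoxd8 and a gene of the forelimb and trunk, stood at 9.69, 9.85 and 9.48 in ND 1 to 3 and at 9.96, 10.12, 10.25 and 10.21 in HFD 1 to 4. The groups did not overlap, and ND 3 was again lowest. The mean rose from 9.67 ± 0.19 (SD, n = 3) to 10.14 ± 0.13 (SD, n = 4), a log2 difference of 0.46 (SE 0.11, 95% interval 0.22 to 0.70, adjusted p = 0.0406), or 1.38-fold. The excluded array ND 4 was at 10.26, above every HFD array, and at 7.18 for Hoxd8, below them all.

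Both calls lay close to the threshold. Without ND 1, ND 2 or ND 3 the adjusted p was 0.0564, 0.0523 and 0.158 for Hoxd8 and 0.0662, 0.0445 and 0.157 for Hoxd9. Without HFD 1, HFD 2, HFD 3 or HFD 4 it was 0.0287, 0.0678, 0.0998 and 0.109 for Hoxd8 and 0.031, 0.0834, 0.105 and 0.111 for Hoxd9. With ND 4 included the differences were 0.48 (adjusted p = 0.153) and 0.32 (adjusted p = 0.317). With the mean of the keratinocyte markers as a covariate they were 0.52 (SE 0.17, adjusted p = 0.195) and 0.43 (SE 0.15, adjusted p = 0.206). Fitted with the 3′ to 5′ control difference as a covariate, they were 0.24 (SE 0.21) and 0.20 (SE 0.17), each with an adjusted p of 0.999. That control difference was at most −0.375 in HFD and at least −0.335 in ND 1 to 3. It thus separated the diets, and this fit cannot tell diet and RNA quality apart.

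Among the members with a negative difference, none passed the test. Hoxa9, a posterior gene also known for its part in blood stem cells, was at 9.05, 8.90 and 9.39 in ND 1 to 3 and at 8.65, 8.89, 8.52 and 8.47 in HFD 1 to 4. The groups touched without overlap, with ND 2 and HFD 2 almost level, and ND 3 was highest. Its difference was −0.48 (SE 0.14, 95% interval −0.79 to −0.18, adjusted p = 0.0694). Hoxb2, an anterior gene known from the hindbrain, was at 7.05, 7.12 and 6.95 in ND 1 to 3 and at 6.71, 6.81, 6.80 and 6.69 in HFD 1 to 4. The excluded ND 4, at 6.97, also lay above all HFD arrays. The difference of Hoxb2 was −0.29 (SE 0.08, 95% interval −0.46 to −0.11, adjusted p = 0.0636), and its arrays were closely spaced within each diet.

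Hoxc8, which patterns the thorax, was at 10.1, 9.87 and 10.34 in ND 1 to 3 and at 10.03, 9.63, 9.54 and 9.63 in HFD 1 to 4. HFD 1 lay among the ND arrays and the other HFD arrays below them. The difference was −0.40 (SE 0.14, adjusted p = 0.126), and without HFD 1 it was −0.50 (adjusted p = 0.0432). Hoxc9, its posterior neighbour, was at 9.44, 9.34 and 9.62 in ND 1 to 3 and at 9.19, 9.32, 9.23 and 9.14 in HFD 1 to 4. The groups did not overlap by a narrow margin, and the difference was −0.25 (SE 0.09, adjusted p = 0.154). Hoxa3, which is needed for the thymus and parathyroid, was at 8.41, 8.43 and 9.16 in ND 1 to 3 and at 8.34, 8.46, 8.30 and 7.81 in HFD 1 to 4. Most arrays lay together, with ND 3 high and HFD 4 low, and the difference was −0.44 (SE 0.20, adjusted p = 0.235). The other probe sets of Hoxa3 differed by −0.04, −0.07 and −0.25, and the last of these was dim (mean 4.64). When every probe set was fitted alone, this dim one was lower past the threshold.

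Hoxb4, a gene known from blood stem cell expansion, was at 7.19, 7.34 and 7.23 in ND 1 to 3 and at 7.14, 7.20, 6.99 and 6.97 in HFD 1 to 4. The groups overlapped, with a difference of −0.18 (SE 0.09, adjusted p = 0.279), and a dimmer probe set differed by −0.03. Hoxc5 was at 7.53, 7.28 and 7.23 in ND 1 to 3 and at 7.25, 7.18, 7.11 and 7.10 in HFD 1 to 4, a difference of −0.19 (SE 0.10, adjusted p = 0.286). Its second probe set, of almost the same mean level (7.22 against 7.24), went the other way by 0.23 (SE 0.08), with ND at 7.07, 7.07 and 7.13 and HFD at 7.22, 7.37, 7.33 and 7.35. No direction can be given for Hoxc5 as a gene.

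On the positive side, Hoxb5, needed for the placing of the shoulder girdle, was at 6.83, 6.73 and 6.22 in ND 1 to 3 and at 6.87, 7.30, 7.07 and 6.93 in HFD 1 to 4. The groups did not overlap, but ND 1 and HFD 1 lay close together and ND 4 was at 7.09. The difference was 0.45 (SE 0.15, 95% interval 0.11 to 0.79, adjusted p = 0.112). It was −0.03 with the 3′ to 5′ control difference as a covariate. Hoxb6, near the background range, was at 5.62, 5.30 and 5.34 in ND 1 to 3 and at 5.87, 6.20, 5.63 and 5.72 in HFD 1 to 4. Its difference was 0.44 (SE 0.13, adjusted p = 0.0777), with ND 4 at 5.63. Among the members above the range, the rest had smaller differences for their error: Hoxb8 0.28 (SE 0.17), Hoxc4 0.25 (SE 0.15), Hoxa10 0.09 (SE 0.20), Hoxa7 −0.14 (SE 0.09), Hoxc10 −0.07 (SE 0.12), Hoxd4 −0.02 (SE 0.08) and Hoxd12 0.00 (SE 0.08). The 95% interval was −0.20 to 0.17 for Hoxd4 and −0.17 to 0.17 for Hoxd12, while that of Hoxa10 reached from −0.35 to 0.53.

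Paralogues differed in sign. Of the genes numbered 9, Hoxd9 rose by 0.46, while the values were 0.22 (SE 0.10, adjusted p = 0.217) for Hoxb9, −0.25 for Hoxc9 and −0.48 for Hoxa9. Hoxb9 lay at the edge of the background range, at 5.96, 5.63 and 5.67 in ND and 5.89, 6.07, 5.85 and 6.07 in HFD. Of the genes numbered 8, Hoxd8 rose by 0.54, while the values were 0.28 for Hoxb8 (adjusted p = 0.37) and −0.40 for Hoxc8. Hoxb8 was at 8.08, 7.74 and 7.51 in ND 1 to 3 and at 8.04, 8.46, 7.84 and 7.90 in HFD 1 to 4, and the groups overlapped. Like that of Hoxd8, its probe set carries the suffix for shared transcripts. In both numbers the Hoxb and Hoxd genes had positive and the Hoxc genes negative differences. Whether the paralogues differ from each other in their response was not tested.

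**Figure D3:**
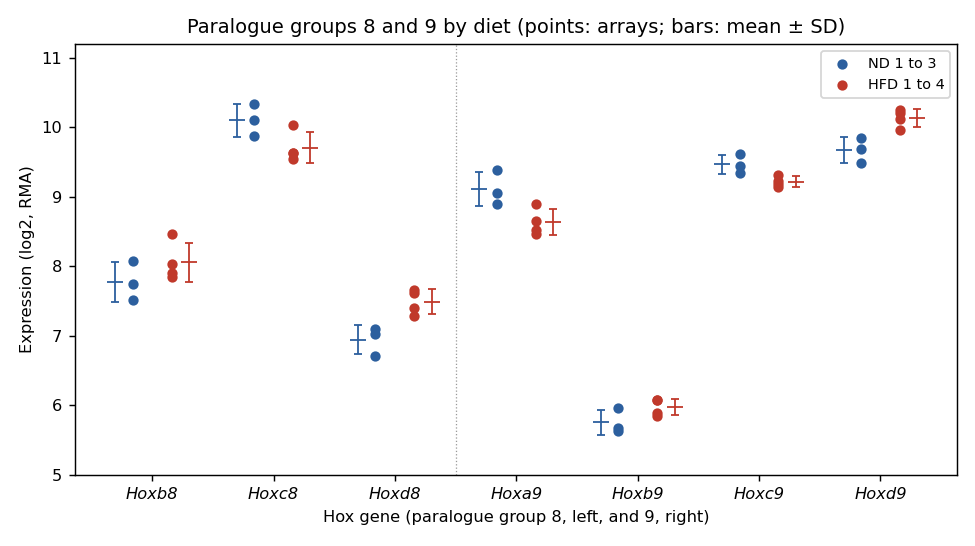
Log2 expression (y axis) of the Hox genes numbered 8 (left of the dotted line) and 9 (right of it) by diet. Points are arrays, blue for ND 1 to 3 and red for HFD 1 to 4, and bars show the mean ± SD. Red points lie above all blue ones for Hoxd8 and Hoxd9 and below them for Hoxa9 and Hoxc9; levels of different genes cannot be ranked.

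ND 3 lay at the end of the range of arrays for most of these genes. Among the 17 members above the background range, ND 3 was the highest of the 7 arrays in 8 (Hoxa3, Hoxa7, Hoxa9, Hoxa10, Hoxc8, Hoxc9, Hoxc10 and Hoxd12) and the lowest in 5 (Hoxb5, Hoxb8, Hoxc4, Hoxd8 and Hoxd9). It was thus at one end in 13 of 17 members (76.5%), against 48.2% of the 10402 genes above the range. HFD 4 was at one end in 8 members (47.1%), 6 of them as the lowest, against 28.8% of genes. HFD 2 was highest in Hoxb5 and Hoxb8, and it also had the highest keratinocyte marker mean (7.81). With that mean as a covariate the differences were 0.25 for Hoxb5, 0.23 for Hoxb6, 0.03 for Hoxb8 and −0.62 for Hoxa9, none past the threshold. ND 3 also had the 3′ minus 5′ difference farthest from the HFD arrays (−0.18). With that difference as a covariate the values were −0.40 for Hoxb2 and −0.17 for Hoxa9, and −0.04 for both Hoxc8 and Hoxc9. Hoxa10 moved away from 0, from 0.09 to 0.73 (SE 0.28), and Hoxb8 moved from 0.28 to −0.11. None was past the threshold, and this covariate separated the diets. The median residual SD was 0.17 for these 17 members and 0.128 for all genes above the range. Over all 34 members it was 0.121, and over all genes 0.107.

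**Figure D4:**
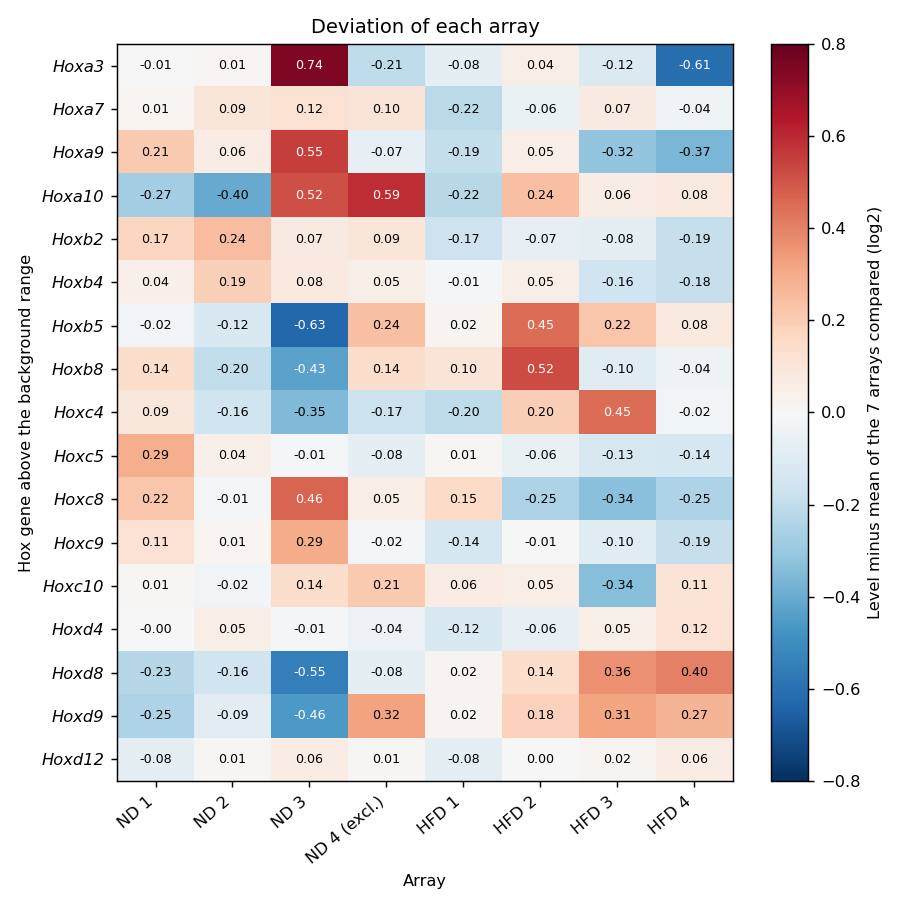
Level of each of the 17 Hox genes above the background range (rows) on each array (columns), as log2 difference from the mean of the 7 arrays compared; red is higher and blue is lower. ND 3 holds strong colours of both signs, from 0.74 for Hoxa3 to −0.63 for Hoxb5, while ND 4, excluded by the label, is at −0.21 and 0.24 for these genes. For Hoxa10 both are high, ND 3 at 0.52 and ND 4 at 0.59.

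Hox proteins bind DNA together with cofactors of the TALE homeodomain class, the Pbx, Meis and Pknox proteins. Of 9 listed, 8 were measured, all above the background range, and none passed the test in limma, with 1 at an unadjusted p under 0.05, against 22.1% of all genes. The median difference was −0.06. Meis3 was at 8.10, 8.04 and 7.99 in ND 1 to 3 and 7.83, 7.93, 7.86 and 7.72 in HFD 1 to 4, a difference of −0.21 (SE 0.09, adjusted p = 0.189). The groups did not overlap, but the excluded ND 4, at 7.64, was below every HFD array. Pbx2 differed by −0.16, Meis1 by −0.11 and Pknox1 by −0.07, with standard errors of 0.10, 0.10 and 0.08.

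Polycomb proteins keep Hox genes silent where they are not used. Of 27 listed, 23 were measured, and 2 were higher past the threshold and none lower, with a median of 0.05, where 5.35% of all genes and 8.06% of those above the background range passed. Rbbp4, a histone-binding subunit of the Polycomb repressive complex PRC2 that also serves other chromatin complexes, was at 8.62, 8.71 and 8.39 in ND 1 to 3 and 9.17, 9.32, 9.05 and 9.08 in HFD 1 to 4. The arrays of each diet lay well apart, and ND 4, at 8.73, lay with the ND arrays. Rbbp4 rose by 0.58 (SE 0.11, adjusted p = 0.0251), or 1.5-fold. Cbx6, a subunit of the other complex, PRC1, was at 7.46, 7.53 and 7.37 in ND 1 to 3 and 7.96, 7.91, 7.82 and 7.79 in HFD 1 to 4. It rose by 0.42 (SE 0.09, adjusted p = 0.0311), but ND 4 was at 7.97, above all HFD arrays. The only probe set of Cbx6 here carries the same suffix for shared transcripts as that of Hoxd8. Of the PRC2 core, Ezh2 differed by 0.12, Ezh1 by 0.05, Eed by −0.02 and Suz12 by −0.21, none past the threshold. These 4 were picked for their role after the values were seen. The count of 2 was 0 without any 1 of ND 3, HFD 2, HFD 3 and HFD 4, 1 without ND 1 and 3 without HFD 1.

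Trithorax proteins keep Hox genes active by methylating lysine 4 of histone H3, and the list also held demethylases of lysine 27. Of 15 listed, 11 were measured, 1 higher and 1 lower past the threshold, against 5.35% of all genes, with a median of 0.07. Kmt2d, a methyltransferase of enhancers, was at 10.51, 10.68 and 10.87 in ND 1 to 3 and 10.38, 10.16, 10.12 and 10.06 in HFD 1 to 4. The groups did not overlap, and Kmt2d fell by 0.51 (SE 0.11, adjusted p = 0.0325), with ND 4 at 10.29, among the HFD arrays. Wdr5, a subunit common to these methyltransferase complexes, was at 8.13, 8.05 and 7.71 in ND 1 to 3 and 8.43, 8.49, 8.32 and 8.49 in HFD 1 to 4. It rose by 0.47 (SE 0.11, adjusted p = 0.043), and its second probe set differed by 0.30 (SE 0.10). The count of 2 was 0 without any 1 of ND 2, ND 3, HFD 2, HFD 3 and HFD 4, and 1 without HFD 1.

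**Figure D5:**
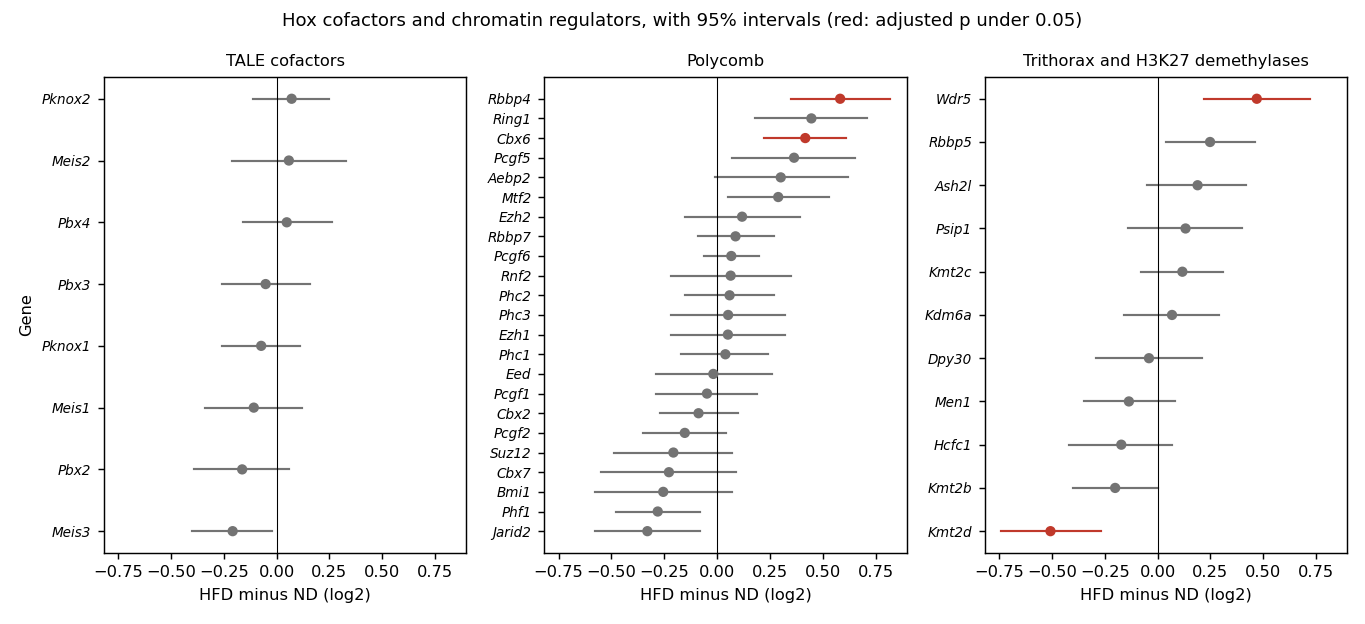
Difference between diets, HFD minus ND in log2 (x axis), with 95% intervals from limma, for each measured gene (y axis) of the TALE cofactors, Polycomb, and Trithorax and H3K27 demethylase lists. Red marks an adjusted p under 0.05: Rbbp4, Cbx6 and Wdr5 lie to the right of 0 and Kmt2d to the left, and no TALE cofactor is red.

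Of 14 listed regulators that set Hox expression along the body axis in the embryo, 12 were measured, and 1 was higher and 1 lower past the threshold, against 5.35% of all genes (median 0.02). Rarg, a retinoic acid receptor, was at 9.88, 9.95 and 10.33 in ND 1 to 3 and 9.59, 9.58, 9.47 and 9.43 in HFD 1 to 4. Every HFD array was below every ND array, ND 4 at 9.61 included, and Rarg fell by 0.54 (SE 0.11, adjusted p = 0.0327). Its second probe set differed by −0.43 (SE 0.10). Rara, the other retinoic acid receptor measured, differed by −0.25 (SE 0.10, adjusted p = 0.199). Egr2, which drives Hox genes in the hindbrain and is also an early response gene, was at 10.46, 10.92 and 10.45 in ND 1 to 3 and 11.12, 11.02, 11.13 and 10.97 in HFD 1 to 4. It rose by 0.45 (SE 0.11, adjusted p = 0.0499), with ND 4 at 11.03, among the HFD arrays. Each of the 7 arrays changed this count when left out: it was 1 without ND 1, ND 2 or HFD 1 and 0 without any of the others.

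Of 42 other transcription factors that mark regions of skin and limb, 35 were measured, with 1 higher and 1 lower past the threshold, a share near the 5.35% of all genes, and a median of 0.02. Tbx18, a factor of limb and urogenital mesenchyme and of the dermal papilla, was at 6.27, 5.99 and 5.79 in ND 1 to 3 and 6.47, 6.38, 6.50 and 6.56 in HFD 1 to 4. It rose by 0.46 (SE 0.11, adjusted p = 0.0398), from the edge of the background range, with ND 4 at 6.40, among the HFD arrays. Its second, dimmer probe set (mean 5.18) differed by 0.24 (SE 0.11). Prrx2, a homeobox gene of limb and facial mesenchyme, was at 9.92, 9.86 and 10.21 in ND 1 to 3 and 9.74, 9.39, 9.27 and 9.47 in HFD 1 to 4. The groups did not overlap, ND 4 lay among the HFD arrays at 9.68, and Prrx2 fell by 0.53 (SE 0.13, adjusted p = 0.0429). Its relative Prrx1 differed by 0.16 (SE 0.07, adjusted p = 0.213). The count of 2 was 1 without ND 1, and 0 without any 1 of ND 2, ND 3, HFD 2, HFD 3 and HFD 4. Without HFD 1 it was 2, but these were Emx2 and Prrx2.

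Some region markers were chosen for their role after the values were seen. Tbx5, a factor of the forelimb and the front of the trunk, was at 7.61 to 8.20 over the 7 arrays, above the background range. The hindlimb factors Tbx4 and Pitx1 were at 4.82 to 4.96, below it, and at 6.28 to 6.67, above it. En1, which marks a fibroblast lineage of the back skin, straddled the range at 5.81 to 6.02. Tbx15 (8.84 to 9.16), Emx2 (9.24 to 9.91) and Twist2 (9.71 to 10.11), all factors of trunk or dermal mesenchyme, were above the range. Of the 35 regional factors measured, 19 were above it on all 7 arrays. They also included Shox2 (7.57 to 8.24), Pax9 (6.84 to 7.19), Lhx9 (7.05 to 7.18) and Hand2. The markers named first are thus not the only ones above the range, and the body site was not tested.

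The genes beside the clusters were compared as well. Of 19 listed, which include noncoding RNAs of the clusters, 13 were measured, 1 higher and none lower past the threshold, where 2.62% of all genes were higher (median 0.05). This was Mtx2, a subunit of mitochondrial import machinery and the protein-coding gene next to Hoxd1, at 7.82, 7.53 and 7.78 in ND 1 to 3 and 8.26, 8.14, 8.09 and 8.01 in HFD 1 to 4. ND 4 was at 7.82, and Mtx2 rose by 0.42 (SE 0.10, adjusted p = 0.0462). The only probe set of Mtx2 here also carries the suffix for shared transcripts. Hnrnpa3, farther out on the same side, differed by 0.25 (SE 0.07, adjusted p = 0.0747), and Atp5g1, near Hoxb13, by 0.36 (SE 0.11, adjusted p = 0.0798). At the other end of the Hoxd cluster Evx2 differed by −0.10 (SE 0.08) and Lnpk by −0.12 (SE 0.08), neither past the threshold. The count of 1 was 0 without any array but HFD 1, and without HFD 1 the gene called was Skap2, not Mtx2. With ND 4 included, or with either covariate, no gene of the Polycomb, Trithorax, axial, regional or neighbour lists passed the threshold.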

How the data were processed

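Expression was measured on 8 arrays of dermal fibroblasts, 4 ND and 4 HFD. The deposited values are log2 expression of 45141 probe sets (3.56 to 13.5), made by the authors with RMA and the affy package per the submitters' processing notes. Their versions and parameters are not given in the sources used here. Array quartiles were within 0.04 of each other, so a change in total RNA would not be seen. No 2 arrays were duplicates (SD of their difference at least 0.165).

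Platform annotation gave 28898 probe sets 1 gene symbol and 551 several, which were not used. For 28689 of the probe sets with 1 symbol, the RefSeq symbol was looked up by Entrez identifier, whether or not it differed. Each gene was read from its brightest probe set over the 7 arrays compared. The difference was fitted in limma 3.58.1 (R 4.3.3; lmFit, eBayes with trend, 10.3 total degrees of freedom) over 17097 genes, with Benjamini-Hochberg adjustment and a threshold of 0.05. Every adjusted p comes from it. Same-numbered ND and HFD specimens did not deviate together.

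The members and lists were chosen with earlier results of these data known. Every Hox member is named; values on every array are given for members past the threshold and the 10 above the background range with the smallest p, and Hoxb6, Hoxb8 and Hoxb9 were added after their values were seen. Of the other lists, each member past the threshold is named, or up to 4 with the smallest p where none passed. Rara, Prrx1, Emx2, Hnrnpa3, Atp5g1, Evx2, Lnpk, Skap2, Lum, Tyrobp, the PRC2 core and the region markers were picked with their values in view. Genes without a probe set of their own were not analysed here. Alternatives were ND 4 included, each array left out, the specimen number as a block, other scalings and fits, both covariates and other probe set rules. Figures were drawn with matplotlib 3.10.9.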

Additional observations from a re-analysis of the deposited data

Results flagged for a closer look

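In 3 of 34 Hox genes 1 of the 4 HFD arrays stood apart from the other 3 by Dixon's criterion, which marks about 1 in 20 groups by chance. The share of all genes marked in this way is not given here, so the count is not read as a trait of Hox genes. Hoxc10, a gene of the lumbar trunk and hindlimb, was at 8.96 in HFD 3 and at 9.35 to 9.41 in the other HFD arrays. Hoxd13 was at 6.26 in HFD 3 and at 6.01 to 6.03 in the others. Hoxd1, which was above the background range on no array, was at 4.10 in HFD 4 and at 4.14 in each of the others.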

How the results depend on the processing

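The count of Hox genes past the threshold, 2, was 0 with ND 4 included, with the mean of probe sets, and with the keratinocyte or the 3′ minus 5′ covariate. It was 4 among genes at or above the median level (Hoxa9 and Hoxb2 added), 5 at an adjusted p under 0.10, and 0 to 3 with 1 array left out. It was 2 or 3 with quantile normalization, median centring, array weights, no trend, and every probe set alone. The added call was Hoxb2 with no trend and a dim probe set of Hoxa3 with every probe set alone, both lower in HFD. The specimen number as a replicate block gave 0 Hox genes and 0 in each other list (1 gene in the whole table). In that fit HFD 4 had no partner, since ND 4 was excluded. The correlations of same-numbered samples were −0.182, −0.291 and −0.053, and those of other pairs ran from −0.166 to 0.264. No pairing by number was seen, but so few pairs cannot exclude shared processing.

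With 1 array left out the count was 0 to 3 for Polycomb, 0 to 2 for Trithorax, 0 to 1 for the axial regulators, 0 to 2 for the regional factors and 0 to 1 for the cluster neighbours. It was 0 in all 5 lists with ND 4 included and with either covariate. The whole table moved likewise, from 914 genes to 6 with ND 4, 11 without ND 3, 6 without HFD 3, 14 with the keratinocyte covariate and 0 with the 3′ minus 5′ covariate. Over 17 alternatives Hoxd8 stayed positive (0.24 to 0.62) and was past the threshold in 6, and Hoxd9 stayed positive (0.20 to 0.55) and was past it in 7. With the 3′ minus 5′ covariate Hoxb5 turned to −0.03, Hoxa3 to 0.24 and Hoxb8 to −0.11, while Hoxa10 grew from 0.09 to 0.73 (SE 0.28). That covariate separated the diets, so its fit cannot tell diet and RNA quality apart. With the mean of probe sets Hoxc5 turned to 0.02. Apart from Hoxc5, whose probe sets disagree, the cause was not tested. The number above the background range, 17, was 16 to 22 under other limits of that range and 17 to 19 with 1 array left out. Without detection calls, differences of genes near the range are limited by background signal.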
